A study of Rattus norvegicus with 30 samples.

Results

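The genes described are 8 through which microglia sense, pass on or break down extracellular purines and related signals: the receptors P2ry12, P2ry13, P2ry6, Gpr34, P2rx4, P2rx7 and Adora3 and the ectonucleotidase Entpd1. They were taken by symbol from the annotation of the array, with the probe set of highest mean signal per gene, and are 8 of 14511 named genes and of 11679 genes tested. All 8 have a probe set that lies above the 30th percentile of its array on all 30 arrays, so all 8 passed the filter on dim signals. The study measured gene expression with Affymetrix Rat Gene 1.0 ST arrays in microglia (the brain's own macrophages) of male rats after a stroke. The stroke was made with a filament that closed the middle cerebral artery for 75 min. Microglia of the injured hemisphere (ipsilateral) and of the one opposite to it (contralateral) were collected on day 14 or day 3 after the stroke, with sham controls, in rats aged 12 months or 3 months. This gives 10 groups of 3 arrays: for each age ipsilateral and contralateral on day 14, ipsilateral and contralateral on day 3, and sham. The sample codes tie the hemispheres of each stroke replicate to 1 of 12 animals. The labels name the strain as Wistar Kyoto in one field and as spontaneously hypertensive rats in another. The hemisphere used for sham samples and the way the microglia were isolated are not given in the labels, nor is it stated that sham replicates are separate animals, so their p-values measure only the spread between these samples.

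Damaged cells release ATP, ADP and UDP, which act on P2 receptors of nearby microglia. P2Y receptors signal through G proteins and steer the processes of the cell towards the source, whereas P2X receptors are ATP-gated cation channels. Ectonucleotidases on the cell surface degrade ATP and ADP to AMP and then to adenosine, which acts on a separate set of receptors. High levels of P2ry12, P2ry13, Gpr34 and Entpd1 are a known trait of undisturbed microglia in rodents.

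Values are log2 signals, so a difference of 1 is a factor of 2, and levels of different genes cannot be compared because probe sets differ in brightness. Array medians ran from 5.06 to 5.24, arrays of 1 group correlated at 0.9865 to 0.9953, and the number of arrays limits the precision. Signals spread less on the 3-month stroke arrays (SD over an array 1.79 to 1.93) than on the others (1.94 to 2.05). The sample codes carry a number that is the same for all 12-month samples but differs between 3-month sham, 3-month day 3 and 3-month day 14 samples. Its meaning is not given in the labels. At 3 months it cannot be told apart from sham or day, while each comparison of hemispheres lies within 1 such number. A gene was called where the limma p-value, adjusted by Benjamini-Hochberg over 11679 genes, was under 0.05. The resident microglia marker list, with Tmem119, Sall1 and Cx3cr1, averaged 9.43 to 10.3 over its 10 tested genes on every array. Of these 10 genes, Olfml3 lay at or below the 30th percentile on all 3 arrays of 4 groups (12-month day 3 ipsilateral, 3-month day 14 ipsilateral, and 3-month day 3 ipsilateral and contralateral).

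Promoters are shown for 4 of the receptor genes because P2rx4 and P2rx7 lie next to each other on chromosome 12, separated by 1 annotated pseudogene, and differed in opposite directions between the hemispheres, while Gpr34 and Adora3 were both lower. They come from RefSeq (assembly GRCr8) and run from 250 bases before to 50 bases after the annotated start; 6 of the 8 genes were matched. Capitals mark GAGGAA or its reverse complement TTCCTC, the core of the sites bound by PU.1, a transcription factor of macrophages and microglia.
P2rx4 (chr12:39523040-39523339, minus strand): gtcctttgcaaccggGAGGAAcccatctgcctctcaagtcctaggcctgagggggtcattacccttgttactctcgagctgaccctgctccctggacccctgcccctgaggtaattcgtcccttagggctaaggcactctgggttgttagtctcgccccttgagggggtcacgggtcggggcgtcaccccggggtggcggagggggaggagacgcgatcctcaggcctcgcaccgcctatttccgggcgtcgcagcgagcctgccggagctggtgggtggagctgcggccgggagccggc
P2rx7 (chr12:39594873-39595172, minus strand): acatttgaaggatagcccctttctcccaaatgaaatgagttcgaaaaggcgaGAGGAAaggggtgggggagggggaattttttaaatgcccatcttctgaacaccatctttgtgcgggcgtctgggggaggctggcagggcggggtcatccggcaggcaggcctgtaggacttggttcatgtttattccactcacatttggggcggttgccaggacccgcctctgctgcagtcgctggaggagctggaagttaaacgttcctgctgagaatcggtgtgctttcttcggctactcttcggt
Gpr34 (chrX:11785787-11786086, minus strand): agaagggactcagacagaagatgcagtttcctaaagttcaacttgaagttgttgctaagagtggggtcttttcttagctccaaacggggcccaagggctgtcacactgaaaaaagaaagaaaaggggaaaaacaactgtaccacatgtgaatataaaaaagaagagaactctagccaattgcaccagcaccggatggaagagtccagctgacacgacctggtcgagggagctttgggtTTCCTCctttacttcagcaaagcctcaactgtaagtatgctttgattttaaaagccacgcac
Adora3 (chr2:196076792-196077091, plus strand): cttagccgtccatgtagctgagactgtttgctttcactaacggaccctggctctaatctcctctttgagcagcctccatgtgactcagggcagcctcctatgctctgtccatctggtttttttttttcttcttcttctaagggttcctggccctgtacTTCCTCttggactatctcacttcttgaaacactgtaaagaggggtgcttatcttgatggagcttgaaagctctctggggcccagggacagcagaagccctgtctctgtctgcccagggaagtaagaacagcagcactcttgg
The GAGGAA core, read on both strands, was present in 5 of the 6 matched promoters (P2rx4, P2rx7, Gpr34, Adora3 and Entpd1) and in 27.6% of all 33469 promoters of the table. The matched promoter without it, that of P2ry13, is not shown, although P2ry13 was lower as well. It begins at position -235 relative to the start in P2rx4 and at -198 in P2rx7, so the neighbours of opposite direction both hold it. The core of the interferon response element (GAAA, any 2 bases, GAAA) was in 0 of the 6 and in 3.92% of all promoters. P2ry12 and P2ry13 are also neighbours, with 0 annotated genes between them on chromosome 2. A match of letters is a description and not a shown binding site.

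The comparison of hemispheres asks how microglia of the injured side differ from those of the opposite side of the same brain. In ipsilateral microglia 7 of the 8 genes were lower and P2rx4, an ATP-gated channel, was higher. On day 14 at 12 months 7 were called lower and 1 higher, against 5.96% and 10.9% of all genes tested. On day 3 at 12 months 6 were called lower and 1 higher, against 10% and 18.7% of all genes tested, and P2ry6 was not called. On day 14 at 3 months 7 were called lower and 1 higher, against 7.1% and 13.2%, and on day 3 at 3 months 7 were called lower and 1 higher, against 8.96% and 11.5%. The median difference of the 8 genes (ipsilateral minus contralateral) was -0.85 and -0.63 at 12 months on days 14 and 3, and -0.59 and -0.79 at 3 months on days 14 and 3, while that of all genes tested lay between -0.015 and -0.009. Groups that did not overlap were counted as well: every ipsilateral array lay below every contralateral one for 7, 6, 7 and 7 of the 8 genes (12 months day 14, 12 months day 3, 3 months day 14, 3 months day 3), against 13.7%, 20.3%, 12.4% and 14.6% of all genes tested. P2rx4 was above without overlap in all 4, against 17.7%, 25.6%, 17.4% and 15.5%. In these bulk samples, fewer cells of a type and less RNA per cell cannot be told apart.

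P2ry12 and P2ry13 encode Gi-coupled ADP receptors, and P2ry12 drives the extension of microglial processes towards ATP and ADP. On day 14, P2ry12 read 11.10, 11.04 and 11.27 in ipsilateral microglia of 12-month rats, against 11.96, 11.91 and 11.89 in contralateral ones. On day 3, it read 11.07, 11.43 and 11.12 in ipsilateral microglia of 12-month rats, against 11.91, 11.88 and 11.88 in contralateral ones. At both times every ipsilateral array lay below every contralateral one. In 3-month rats, P2ry12 read 11.50, 11.09 and 11.37 in ipsilateral microglia on day 14, against 11.79 on each of the 3 contralateral arrays. In 3-month rats of day 3, P2ry12 read 10.83, 11.12 and 11.24 in ipsilateral microglia, against 11.92, 11.86 and 11.76 in contralateral ones. The hemispheres did not overlap at 3 months either. The difference (ipsilateral minus contralateral) was -0.79 ± 0.11 (SE, limma adjusted p = 2.34e-06) on day 14 and -0.69 ± 0.11 (adjusted p = 1.01e-05) on day 3 at 12 months. At 3 months it was -0.47 ± 0.11 (limma adjusted p = 0.00171) on day 14 and -0.78 ± 0.11 (adjusted p = 2.35e-06) on day 3. P2ry12 was lower on the injured side in 12 of 12 animals, by 0.28 to 1.09.

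P2ry13 showed larger differences than P2ry12 at each age and day, although the gap between the 2 genes was not tested. In 12-month rats, P2ry13 read 8.99, 8.94 and 9.36 in ipsilateral microglia on day 14, against 10.21, 10.46 and 10.48 in contralateral ones. At 12 months, day 3, P2ry13 read 9.36, 9.62 and 9.26 in ipsilateral microglia, against 10.43, 10.25 and 10.27 in contralateral ones. The closest ipsilateral and contralateral arrays of these groups are still well apart. In 3-month rats, P2ry13 read 9.40, 8.70 and 9.06 in ipsilateral microglia on day 14, against 10.12, 10.08 and 9.96 in contralateral ones. At 3 months, day 3, P2ry13 read 8.997, 9.10 and 9.10 in ipsilateral microglia, against 10.35, 10.12 and 9.98 in contralateral ones. The lowest single array was a 3-month day 14 ipsilateral one. P2ry13 was 2.44-fold lower in ipsilateral than contralateral microglia on day 14 at 12 months (limma adjusted p = 2.81e-08), and 1.87-fold, 2.003-fold and 2.12-fold lower in the other 3 comparisons (12 months day 3, 3 months day 14, 3 months day 3; adjusted p = 5.7e-06, 1.99e-06 and 5.56e-07). All 12 animals had less P2ry13 signal on the injured side, by 0.63 to 1.52.

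**Figure D1:**
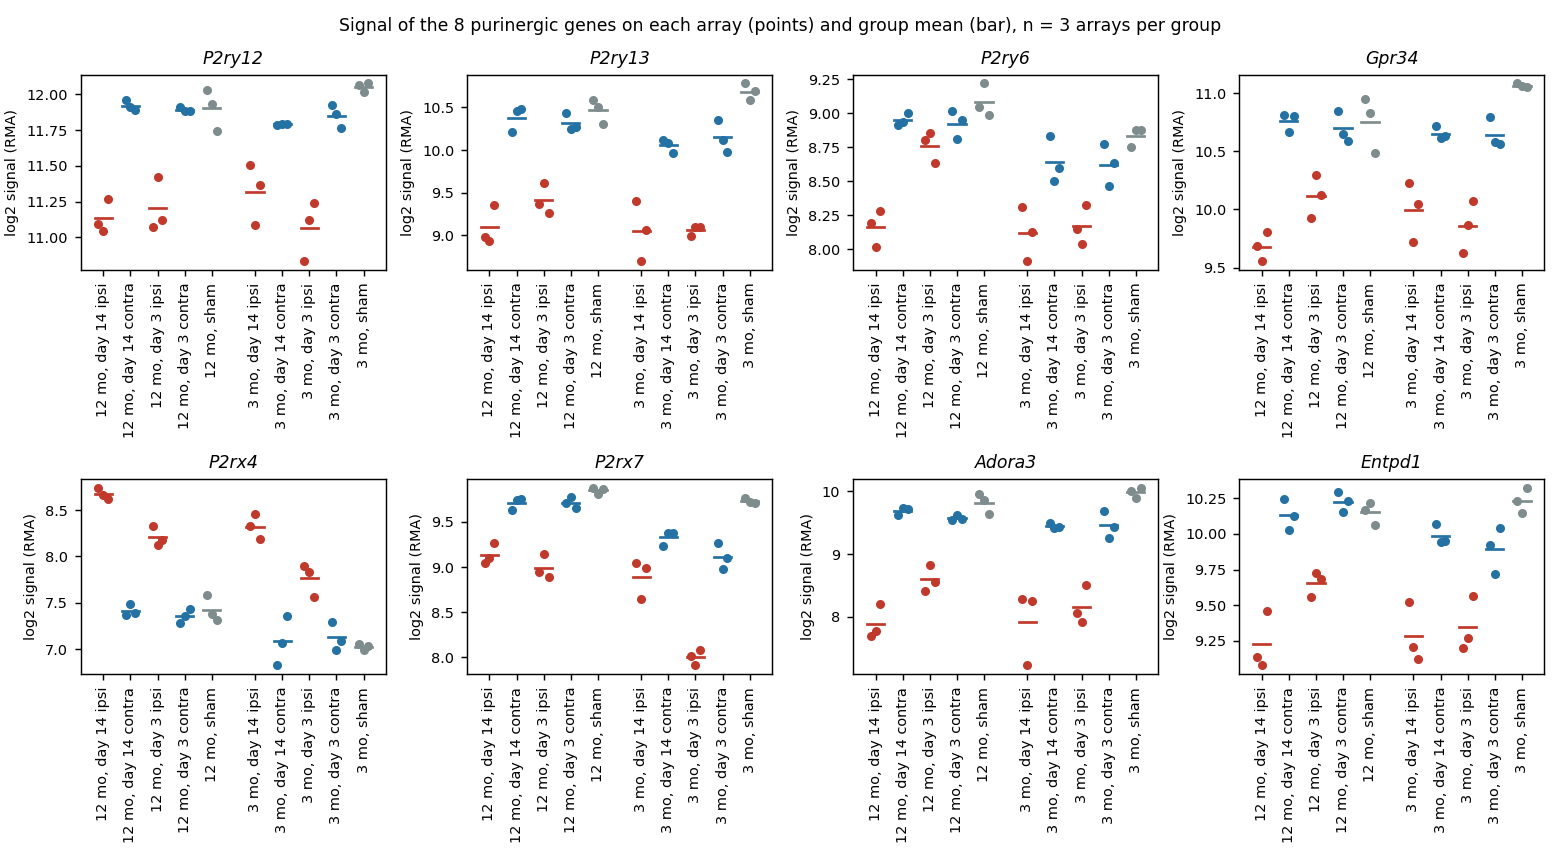
Log2 signal of each of the 8 genes on every array (points) with the group mean (bar), 3 arrays per group; red is ipsilateral, blue contralateral and grey sham, 12 months on the left and 3 months on the right of each panel. Ipsilateral arrays lie below contralateral ones for 7 genes and above them for P2rx4, and for P2ry6 the hemispheres overlap on day 3 at 12 months.

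P2ry6, the UDP receptor that promotes phagocytosis by microglia, depended on the day at 12 months. In 12-month rats, P2ry6 read 8.19, 8.02 and 8.28 in ipsilateral microglia on day 14, against 8.91, 8.93 and 9.003 in contralateral ones. The 12-month rats of day 3 had P2ry6 signals of 8.80, 8.85 and 8.63 in ipsilateral microglia, against 9.02, 8.81 and 8.95 in contralateral ones. The hemispheres were clearly separate on day 14 and overlapped on day 3. In 3-month rats, P2ry6 read 8.31, 7.91 and 8.13 in ipsilateral microglia on day 14, against 8.83, 8.50 and 8.60 in contralateral ones. The 3-month rats of day 3 had P2ry6 signals of 8.15, 8.04 and 8.33 in ipsilateral microglia, against 8.77, 8.46 and 8.63 in contralateral ones. At 3 months the hemispheres were separate on both days. The difference for P2ry6 (ipsilateral minus contralateral) was -0.78 ± 0.11 on day 14 (limma adjusted p = 3.1e-06) and -0.16 ± 0.11 on day 3 (adjusted p = 0.296) at 12 months, with a 95% interval of -0.38 to 0.06 on day 3. After quantile normalization the day 3 difference was -0.29 and was called (limma adjusted p = 0.0214). At 3 months P2ry6 fell by 0.53 on day 14 and by 0.45 on day 3 (limma adjusted p = 0.000635 and 0.00264). It was lower on the injured side in 11 of 12 animals.

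Gpr34 belongs to the P2Y-like branch of receptors but is activated by lysophosphatidylserine, a lipid, and not by a nucleotide. On day 14 at 12 months Gpr34 read 9.56 to 9.80 in ipsilateral microglia, against 10.67 to 10.81 in contralateral ones. The other 3 ipsilateral groups ranged from 9.63 to 10.29, against 10.56 to 10.85 in the contralateral groups. No ipsilateral Gpr34 array reached a contralateral one. Gpr34 was 2.12-fold lower on day 14 and 1.499-fold lower on day 3 at 12 months (limma adjusted p = 1.73e-07 and 0.000621), and 1.57-fold and 1.73-fold lower on days 14 and 3 at 3 months (adjusted p = 0.000284 and 2.28e-05). The injured side was lower in 12 of 12 animals.

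P2rx4 was the one gene of the 8 that rose on the injured side. It encodes a cation channel that opens at low ATP concentrations and sits largely in lysosomes of microglia. In 12-month rats, P2rx4 read 8.74, 8.67 and 8.62 in ipsilateral microglia on day 14, against 7.37, 7.49 and 7.39 in contralateral ones. For 12-month rats on day 3, P2rx4 read 8.33, 8.12 and 8.18 in ipsilateral microglia, against 7.28, 7.36 and 7.43 in contralateral ones. Every ipsilateral array was the higher one, with the highest signals on day 14. In 3-month rats, P2rx4 read 8.33, 8.46 and 8.19 in ipsilateral microglia on day 14, against 6.82, 7.06 and 7.36 in contralateral ones. For 3-month rats on day 3, P2rx4 read 7.90, 7.83 and 7.56 in ipsilateral microglia, against 7.29, 6.99 and 7.09 in contralateral ones. The 3-month groups were apart as well, and the ipsilateral arrays of day 14 lay above those of day 3. P2rx4 was 2.40-fold and 1.81-fold higher in ipsilateral than contralateral microglia at 12 months on days 14 and 3 (limma adjusted p = 9.84e-10 and 6.66e-07). At 3 months it was 2.36-fold and 1.56-fold higher on days 14 and 3 (limma adjusted p = 1.38e-09 and 7.34e-05). All 12 animals showed the rise, by 0.47 to 1.501.

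P2rx7, the channel that opens at high ATP concentrations and triggers release of interleukin 1 beta, went the other way from its chromosomal neighbour. In 12-month rats, P2rx7 read 9.04, 9.10 and 9.26 in ipsilateral microglia on day 14, against 9.64, 9.74 and 9.76 in contralateral ones. P2rx7 at 12 months on day 3 read 8.95, 9.14 and 8.89 in ipsilateral microglia, against 9.70, 9.78 and 9.65 in contralateral ones. The hemispheres were separate, with similar ipsilateral signals on both days. In 3-month rats, P2rx7 read 9.05, 8.65 and 8.99 in ipsilateral microglia on day 14, against 9.23, 9.38 and 9.38 in contralateral ones. P2rx7 at 3 months on day 3 read 8.01, 7.91 and 8.08 in ipsilateral microglia, against 9.27, 8.98 and 9.10 in contralateral ones. The 3-month day 3 ipsilateral arrays lay below all other 27 arrays. P2rx7 was 1.49-fold and 1.64-fold lower in ipsilateral than contralateral microglia at 12 months on days 14 and 3 (limma adjusted p = 4.84e-05 and 1.05e-06). At 3 months it was 1.35-fold lower on day 14 (limma adjusted p = 0.00127) and 2.16-fold lower on day 3 (adjusted p = 1.11e-09).

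Adora3, the Gi-coupled adenosine A3 receptor, had the widest range of group means of the 8 genes on the log2 scale, 2.10 between the highest and the lowest group. In 12-month rats, Adora3 read 7.69, 7.77 and 8.21 in ipsilateral microglia on day 14, against 9.62, 9.74 and 9.71 in contralateral ones. Among 12-month rats on day 3, Adora3 read 8.42, 8.83 and 8.55 in ipsilateral microglia, against 9.54, 9.62 and 9.56 in contralateral ones. The ipsilateral arrays of day 14 lay below those of day 3. In 3-month rats, Adora3 read 8.28, 7.23 and 8.25 in ipsilateral microglia on day 14, against 9.49, 9.41 and 9.44 in contralateral ones. Among 3-month rats on day 3, Adora3 read 8.07, 7.92 and 8.51 in ipsilateral microglia, against 9.69, 9.25 and 9.44 in contralateral ones. Replicate 2 of the 3-month day 14 ipsilateral group was about 1 unit below its fellows, and the SD of that group was 0.60. The same array was the lowest of its group for P2ry12, P2ry13, P2ry6, P2rx7 and Gpr34 and the highest for P2rx4. The calls of the 8 genes between hemispheres held without it. Adora3 was 3.48-fold and 1.97-fold lower in ipsilateral than contralateral microglia at 12 months on days 14 and 3 (limma adjusted p = 1.94e-08 and 0.000141). At 3 months Adora3 was 2.88-fold and 2.45-fold lower on days 14 and 3 (limma adjusted p = 4.15e-07 and 4.82e-06). Each of 12 animals was lower on the injured side, by 0.79 to 2.18.

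Entpd1 (CD39) encodes the surface enzyme that degrades ATP and ADP to AMP. On day 14 it read 9.08 to 9.46 in ipsilateral microglia of 12-month rats, against 10.03 to 10.25 in contralateral ones. Ipsilateral Entpd1 signals of the other 3 groups ranged from 9.12 to 9.72, against 9.72 to 10.29 in contralateral ones. Within each age and day the hemispheres did not overlap. Entpd1 was 1.88-fold and 1.49-fold lower in ipsilateral than contralateral microglia at 12 months on days 14 and 3 (limma adjusted p = 4.55e-07 and 0.000209). At 3 months Entpd1 was 1.63-fold and 1.46-fold lower on days 14 and 3 (limma adjusted p = 2.49e-05 and 0.000497). The injured side was lower in 12 of 12 animals.

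**Figure D2:**
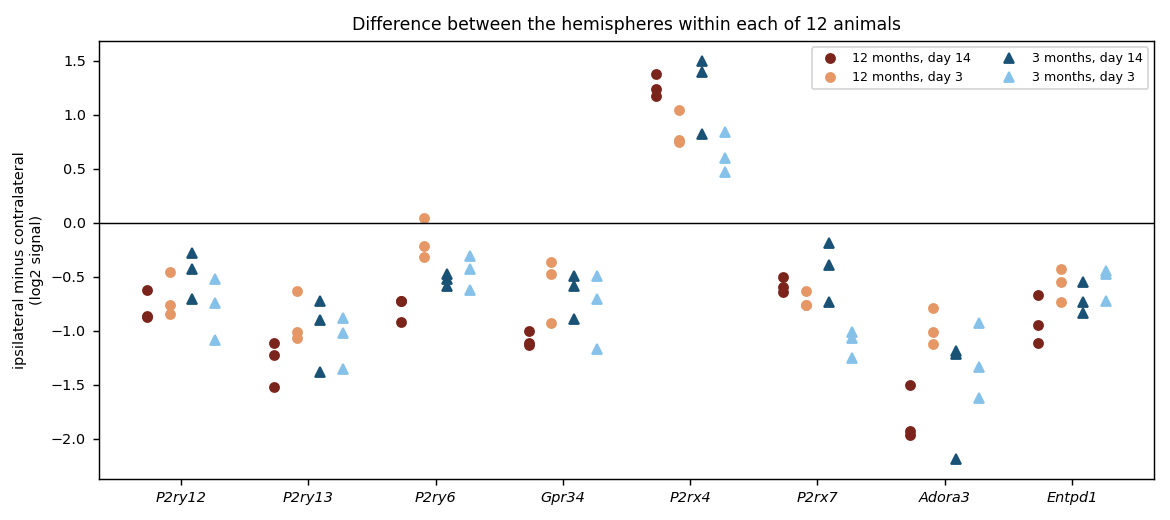
Ipsilateral minus contralateral log2 signal of each of the 12 animals for the 8 genes; circles are 12-month and triangles 3-month rats, dark symbols day 14 and light symbols day 3. All 12 points lie below 0 for 6 genes and above 0 for P2rx4, and 1 animal lies above 0 for P2ry6.

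Against sham, which asks how ipsilateral microglia differ from those of rats without a stroke, the same 8 genes were called with the same signs. The ipsilateral arrays are shared with the comparison of hemispheres, so the 2 comparisons are not independent. At 3 months the stroke samples also differ from sham in the number in the sample codes, so stroke and number cannot be told apart. All 8 were called on days 14 and 3 at 12 months, against 20.1% and 37.1% of all genes tested, and on days 14 and 3 at 3 months, against 34.4% and 56.8%. Adora3 was 3.80-fold and 2.32-fold lower in ipsilateral than sham microglia at 12 months on days 14 and 3 (limma adjusted p = 3.8e-09 and 4.18e-06). At 3 months it was 4.18-fold and 3.53-fold lower on days 14 and 3 (limma adjusted p = 7.9e-10 and 1.9e-09). The sham samples read 9.95, 9.86 and 9.64 for Adora3 at 12 months and 10.01, 9.89 and 10.06 at 3 months, above every ipsilateral array. P2rx7 on day 3 at 3 months was 3.32-fold lower in ipsilateral microglia (limma adjusted p = 2.52e-14) than in the 3-month sham samples, which read 9.76, 9.72 and 9.71. P2rx4 was 1.67-fold to 2.46-fold higher in ipsilateral microglia than in sham samples, which read 7.58, 7.38 and 7.31 at 12 months and 7.05, 6.99 and 7.04 at 3 months. P2ry6 on day 3 at 12 months was the weakest call (1.25-fold lower, limma adjusted p = 0.0199). Without 12-month sham replicate 2 or ipsilateral replicate 3 its adjusted p was 0.113.

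The contralateral hemisphere was set against sham to see how far the side opposite to the stroke differed. At 3 months this cannot be told apart from the number in the sample codes, which differs between sham and stroke samples. Signals also spread less on the 3-month stroke arrays. All 12-month samples share 1 number. At 12 months 0 of the 8 genes were called by limma on either day, and 0 had an unadjusted p under 0.05, against 0.00856% and 1.28% of all genes tested called on days 14 and 3. The differences at 12 months (contralateral minus sham) lay between -0.24 and 0.08. At 3 months 4 genes were called on day 14, all lower (P2ry13, P2rx7, Gpr34 and Adora3), against 38.7% of all genes tested in either direction and 28.4% lower. On day 3 the same 4 and Entpd1 were called lower, 5 in all, against 51.6% of all genes tested in either direction and 37.2% lower. Quantile normalization moved the higher share of all calls to 38.2% on day 14 and 40.4% on day 3, against 26.8% and 27.8% as deposited. P2ry13 was 1.55-fold and 1.45-fold lower in contralateral than sham microglia on days 14 and 3 (limma adjusted p = 0.000581 and 0.0015), and the 3-month sham samples, at 10.78, 10.59 and 10.69, lay above all contralateral arrays of that age. P2rx7 was 1.32-fold and 1.54-fold lower on the same days (limma adjusted p = 0.00155 and 4.92e-06). P2ry12 differed by -0.26 on day 14 at 3 months and was not called (limma adjusted p = 0.0521), but it was with the compared arrays alone (0.0474), under the stricter filter on dim probe sets (0.0459) and with a trended, robust prior (0.028). After quantile normalization 1 gene was called on day 14 (P2ry13) and 3 on day 3, P2ry13 and P2rx7 lower and P2rx4 higher. The calls for Adora3 ended when 3-month sham replicate 3 was left out (limma adjusted p = 0.0644 on day 14 and 0.0554 on day 3), and on day 3 also without contralateral replicate 2 (0.101). On day 14 they ended as well without sham replicate 1 or contralateral replicate 2 or 3 (limma adjusted p = 0.0584, 0.0553 and 0.0504). The Entpd1 call on day 3 ended without sham replicate 3 or contralateral replicate 2 (limma adjusted p = 0.058 and 0.099).

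**Figure D3:**
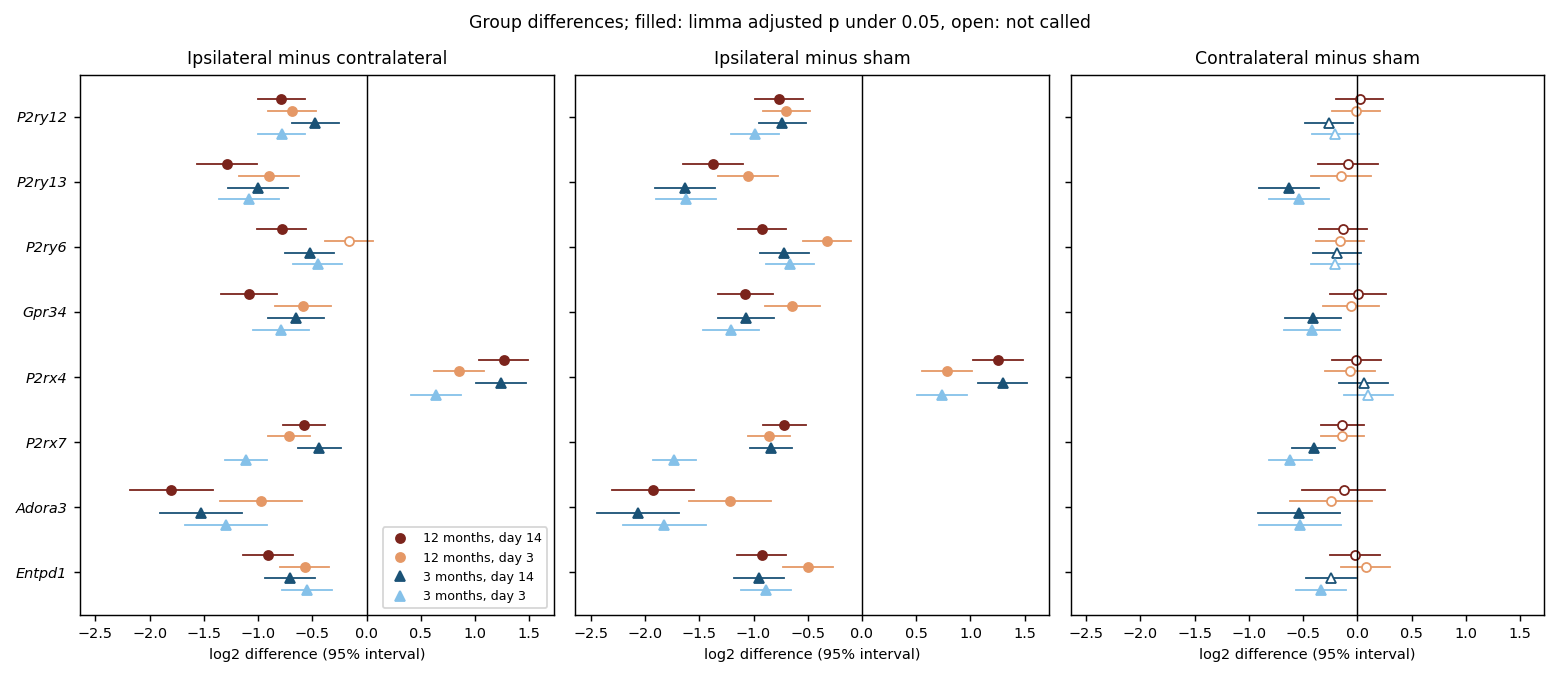
Log2 differences of the 8 genes with 95% intervals for ipsilateral minus contralateral, ipsilateral minus sham and contralateral minus sham; filled symbols were called by limma (adjusted p under 0.05), open ones were not. The 2 left panels show 7 genes below 0 and P2rx4 above 0, and in the right panel the 12-month symbols (circles) are all open.

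Day 14 was compared with day 3 in the same hemisphere. In ipsilateral microglia of 12-month rats P2rx4 rose by 0.47 (limma adjusted p = 0.00253) and 4 genes fell: Adora3 fell by 0.71 (0.00565), P2ry6 by 0.60 (0.00014), Gpr34 by 0.43 (0.013) and Entpd1 by 0.43 (0.00574). These 5 calls of 8 stand against 20.6% of all genes tested. A second probe set, listed under both Tmigd3 and Adora3, did not show the Adora3 fall. It averaged 5.99 on day 3 and 6.09 on day 14 in these ipsilateral groups. The Gpr34 call ended without day 14 replicate 2 or day 3 replicate 2 of the ipsilateral groups (limma adjusted p = 0.0785 and 0.0844) and after quantile normalization (0.0531), and the Entpd1 call ended without day 14 replicate 2 (0.052). In ipsilateral microglia of 3-month rats P2rx7 was 1.86-fold higher on day 14 than on day 3 (limma adjusted p = 7.76e-08) and P2rx4 was 1.47-fold higher (adjusted p = 0.000315). These 2 calls of 8 stand against 29.6% of all genes tested, a share near that of the members, and day cannot be told apart from the number in the sample codes at 3 months. P2ry12 differed by 0.25 there and was not called (limma adjusted p = 0.0731); it was called without day 14 ipsilateral replicate 2 (adjusted p = 0.0131) or day 3 ipsilateral replicate 3 (0.0304), and after quantile normalization (0.0219). In contralateral microglia 0 of the 8 genes were called by limma at either age, against 1.06% of all genes tested at 12 months and 10.2% at 3 months. An unadjusted p under 0.05 was seen for 0 members at 12 months and 1 at 3 months.

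Whether the difference between hemispheres itself changed with the day was tested as an interaction (the hemisphere difference on day 14 minus that on day 3). At 12 months P2ry6 was the only one of the 8 genes called, against 5.33% of all genes tested, with an interaction of -0.62 ± 0.15 (SE, limma adjusted p = 0.0123). Without 12-month day 14 ipsilateral replicate 2 its adjusted p was 0.0522. Adora3 had an interaction of -0.82 ± 0.26 at 12 months and was not called (limma adjusted p = 0.0653). It was called with the animal as a random block (adjusted p = 0.0476), though not with the animal as a fixed block (0.0564). Adora3 was also called with the compared arrays alone (0.00962) and without 12-month day 14 ipsilateral replicate 3 (0.0314). The probe set listed under both Tmigd3 and Adora3 was not tested for this interaction. Its 12-month means were 6.09 (ipsilateral) against 6.66 (contralateral) on day 14 and 5.99 against 6.62 on day 3. At 3 months 2 genes were called, against 3.81% of all genes tested: P2rx7 with 0.68 ± 0.14 (SE, limma adjusted p = 0.00337) and P2rx4 with 0.60 ± 0.16 (adjusted p = 0.0262). For P2rx7 this is a smaller deficit on day 14, and for P2rx4 a larger excess. The P2rx4 call ended with the animal as a fixed block (limma adjusted p = 0.0615). It also ended without any 1 of 5 of the 12 arrays (day 14 ipsilateral replicate 1 or 2, day 14 contralateral replicate 1, day 3 ipsilateral replicate 3, day 3 contralateral replicate 1; adjusted p = 0.06 to 0.0928). With the 12 compared arrays alone, neither was called (limma adjusted p = 0.0597 for P2rx7 and 0.185 for P2rx4).

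The effect of age on the difference between hemispheres (12 months minus 3 months) was called by limma for 0 of the 8 genes on day 14 and for 0 on day 3, against 0.00856% and 1.58% of all genes tested. An unadjusted p under 0.05 was seen for 2 members on day 14 and for 1 on day 3. The 95% interval for P2rx7 on day 3 was 0.12 to 0.67 around a difference of 0.40 (limma adjusted p = 0.161), and that for P2rx4 on day 14 was -0.30 to 0.35. In sham samples P2rx4 was 1.32-fold higher at 12 months than at 3 months (limma adjusted p = 0.017), 1 gene of 8 against 13% of all genes tested. Without 3-month sham replicate 2 or 12-month sham replicate 1 its adjusted p was 0.0628 and 0.0997, and the ages also differ in the number in the sample codes.

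Ordered by level, the sham and contralateral groups held the upper places and the ipsilateral groups the lower ones for P2ry12, P2ry13, Gpr34, Adora3 and Entpd1, and the reverse held for P2rx4. The order was mixed for P2ry6, where the 12-month day 3 ipsilateral group (8.76 ± 0.11, SD, n = 3) stood above both 3-month contralateral groups, and for P2rx7. For P2ry12 the mean was highest in 3-month sham (12.05 ± 0.03, SD, n = 3) and lowest in 3-month day 3 ipsilateral microglia (11.07 ± 0.21). For P2rx4 it was highest in 12-month day 14 ipsilateral microglia (8.68 ± 0.06, SD, n = 3) and lowest in 3-month sham (7.03 ± 0.03). P2rx7 had its highest mean in 12-month sham (9.85 ± 0.04, SD, n = 3) and its lowest in 3-month day 3 ipsilateral microglia (8.002 ± 0.09). Most neighbours in these orders cannot be told apart: the arrays of neighbouring groups overlapped in 9 of 9 neighbour pairs for Entpd1, in 8 for P2ry6 and Adora3, in 7 for P2ry12, P2ry13, P2rx4 and Gpr34 and in 6 for P2rx7. For P2ry12, P2ry13, Gpr34 and Adora3, 1 of the breaks lay between the lowest contralateral and the highest ipsilateral group.

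Across the 10 group means, which share their arrays and scaling, the patterns of P2ry13 and Adora3 were the most alike pair among the 8 (Pearson r = 0.991), and P2rx4 ran opposite to the other 7 (r from -0.446 with P2rx7 to -0.892 with Gpr34). Among all genes tested, those most like P2ry12 were Cx3cr1, the fractalkine receptor of microglia (r = 0.985), Il6 (0.98) and Slc29a1 (0.979). Those most like P2rx4 were Lgals3bp (r = 0.987), Ypel2 (0.986) and the lectin gene Clec4a2 (0.985). P2rx7 ran with Tmem50b (r = 0.991), Mat2a (0.988) and Sall1, a transcription factor that marks microglia (0.985). P2ry6 ran with Tnfaip1 (r = 0.979), Cyth4 (0.975) and Rcn3 (0.963). P2ry13 ran, after Adora3, with Wasf2 (r = 0.987) and Il7r (0.984), and Gpr34 with Slamf1 (0.981), Adora3 (0.979) and P2ry13 (0.978). Adora3 ran, after P2ry13, with the lipoxygenase gene Alox5 (r = 0.99) and Susd3 (0.985), and Entpd1 with Alox5 (0.989), Socs2 (0.986) and Il7r (0.986).

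Of 56 other purinergic genes in 8 lists, 46 were tested. Between hemispheres 10 were called higher and 6 lower on day 14 at 12 months, against 10.9% and 5.96% of all genes tested. On day 3 at 12 months 11 were called higher and 6 lower, against 18.7% and 10%. At 3 months 6 were called higher and 7 lower on day 14, against 13.2% and 7.1%, and 8 higher and 7 lower on day 3, against 11.5% and 8.96%. The 6 higher on day 14 at 3 months, and the 11 higher and 6 lower on day 3 at 12 months, are near the shares of all genes tested. Nt5e (CD73), which turns the AMP made by Entpd1 into adenosine, was called higher in all 4 comparisons, opposite to Entpd1. On day 14 Nt5e read 8.63, 8.60 and 8.51 in ipsilateral microglia of 12-month rats, against 7.76, 8.004 and 8.05 in contralateral ones, and 8.25, 7.97 and 8.10 in ipsilateral microglia of 3-month rats, against 7.43, 7.12 and 7.45. The groups did not overlap. The Nt5e difference was 0.64, 0.80, 0.78 and 0.34 (ipsilateral minus contralateral; 12 months day 14, 12 months day 3, 3 months day 14, 3 months day 3; SE 0.10), with a limma adjusted p of 0.0121 for the smallest. That smallest call ended without 2 of its 6 arrays in turn (limma adjusted p = 0.0546 and 0.0702) and with the 6 compared arrays alone (0.0508). At 3 months the contralateral arrays of Nt5e lay below the sham samples, which read 7.90, 7.91 and 7.89, with differences of -0.57 on day 14 and -0.87 on day 3 (limma adjusted p = 5.38e-05 and 3.61e-08). The ipsilateral arrays of day 3, at 7.27, 7.35 and 7.48, were likewise below sham. The 3-month sham and stroke samples also differ in the number in the sample codes. Ada, which converts adenosine to inosine, rose by 0.47, 0.80 and 0.84 at 12 months day 14, 12 months day 3 and 3 months day 3 (limma adjusted p = 0.0275, 0.000117 and 8.93e-05). The first of these ended without any 1 of 4 of 6 arrays (adjusted p = 0.0933 to 0.147) and after quantile normalization (0.0541).

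Slc29a1, the equilibrative nucleoside transporter ENT1, fell in all 4 comparisons of hemispheres, by 0.75, 0.71, 0.50 and 0.69 (12 months day 14, 12 months day 3, 3 months day 14, 3 months day 3; largest limma adjusted p = 0.00164). The concentrative transporter Slc28a2 rose by 1.08 on day 3 at 12 months and by 1.49 on day 3 at 3 months (limma adjusted p = 0.00122 and 4.24e-05). On day 14 at 12 months Slc28a2 was higher by 0.72 (limma adjusted p = 0.0444), a call that ended without any 1 of 4 of 6 arrays (adjusted p = 0.0541 to 0.272), with the animal as a fixed block (0.083) and under 3 further settings (0.0545 to 0.0919). Adora1, the other Gi-coupled adenosine receptor, fell in all 4, by 0.58, 0.35, 0.41 and 0.32 in the same order. The day 3 calls for Adora1 depended on single arrays: at 12 months the call ended without 1 of 6 arrays (limma adjusted p = 0.0604), and at 3 months without either of 2 of 6 (0.143 and 0.161) and with the compared arrays alone (0.1). Among the signalling partners, Il1b, the cytokine released after P2rx7 opens, rose by 1.77, 1.12, 1.23 and 2.05 in the same order (largest limma adjusted p = 0.000824). Gna13, a G protein alpha subunit, rose by 0.88, 0.50, 0.94 and 0.43 (largest limma adjusted p = 0.00213). Plcb2, a phospholipase C downstream of G proteins, fell by 0.36 and 0.60 on days 14 and 3 at 12 months and by 0.38 on day 3 at 3 months (largest limma adjusted p = 0.0037). Slc17a9, which loads ATP into vesicles, fell in 3 of the 4, most on day 14 at 3 months (by 0.54, limma adjusted p = 0.00038). Its day 3 calls, at 12 months and at 3 months, ended without any 1 of 2 and of 5 of 6 arrays (limma adjusted p = 0.0517 to 0.0622 and 0.0597 to 0.114), and at 3 months also with the compared arrays alone (0.0565).

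The other named genes were called in fewer of the comparisons. P2ry14, the UDP-glucose receptor, read 6.94, 6.31 and 6.64 in ipsilateral microglia on day 14 at 12 months, against 7.81, 7.54 and 7.74 in contralateral ones. At 3 months P2ry14 read 6.54, 5.99 and 6.08 in ipsilateral microglia on day 14, against 7.41, 7.39 and 7.25 in contralateral ones. The P2ry14 difference was -1.07 and -1.14 on day 14 at 12 and 3 months (limma adjusted p = 2.3e-06 and 8.49e-07), against -0.15 and -0.40 on day 3 (0.489 and 0.051). With the animal as a block, the P2ry14 difference on day 3 at 3 months was called (limma adjusted p = 0.0389 as a random and 0.0403 as a fixed block). It was also called under the stricter filter (0.0419), after quantile normalization (0.0248) and with a trended, robust prior (0.0419). Without day 3 ipsilateral replicate 3 it was called as well (0.00998), but not without any other single array (up to 0.228). Enpp3, an ectonucleotidase known from basophils and mast cells, read 5.44, 5.78 and 5.88 in ipsilateral microglia on day 3 at 12 months, against 3.85, 4.12 and 4.28 in contralateral ones, of which 2 arrays were at or below the 30th percentile. On day 3 at 3 months Enpp3 read 5.50, 5.01 and 4.77 in ipsilateral microglia, against 4.27, 4.33 and 4.42 in contralateral ones, of which 2 arrays were again at or below it. By day 14 the Enpp3 difference was 0.09 at 12 months and -0.05 at 3 months, neither called (limma adjusted p = 0.72 and 0.824). Of the mast cell and eosinophil markers, 4 of 10 were tested and 0 were higher in ipsilateral microglia in these comparisons. Some of the 4 were dim: Fcer1a lay at or below the 30th percentile on all 3 ipsilateral arrays of day 3 at each age. Tpsb2 did so on those of day 3 at 12 months and of day 14 at each age. Whether such cells were present was not tested. P2ry2, a receptor for ATP and UTP, was higher by 0.73 and 0.61 on days 14 and 3 at 12 months (limma adjusted p = 0.00149 and 0.00477). On day 3 at 3 months P2ry2 was called after quantile normalization (0.50, limma adjusted p = 0.0337) and without ipsilateral replicate 3 (0.64, 0.00433). Calhm2, a channel for ATP release, was called on day 3 at 3 months (-0.61, limma adjusted p = 0.000785), and on day 3 at 12 months with the compared arrays alone (-0.31, 0.0136) and after quantile normalization (-0.39, 0.0171). Kcnk13 (THIK-1), a potassium channel of microglia, fell by 0.39 on day 3 at 12 months (limma adjusted p = 0.00424) and by 0.33 on day 14 at 3 months (0.0207), the second of which ended without any 1 of 3 of 6 arrays (0.082 to 0.145) and with the compared arrays alone (0.109).

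**Figure D4:**
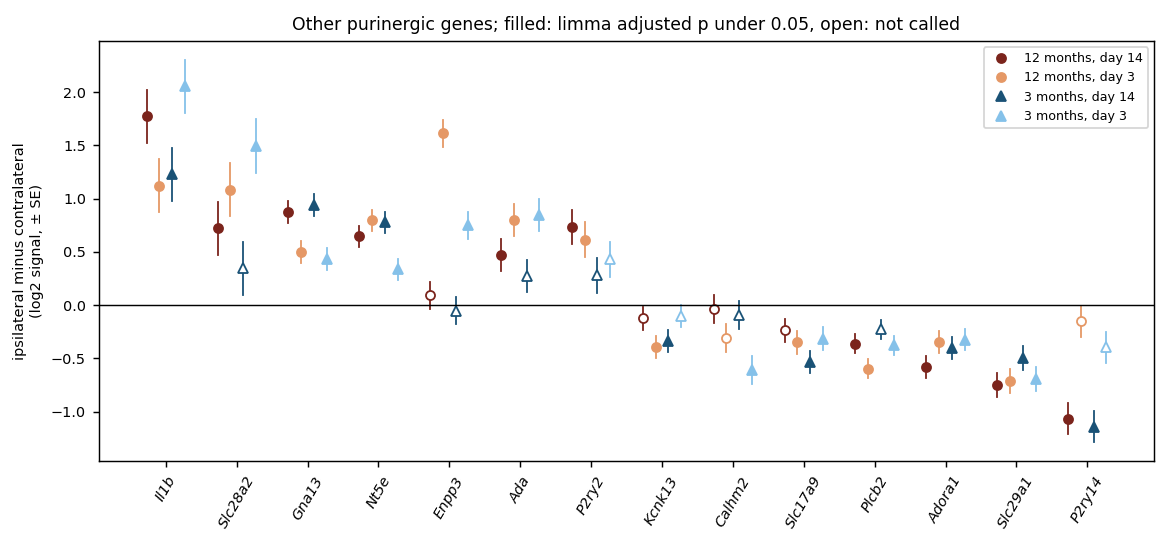
Ipsilateral minus contralateral log2 difference (± SE) of the 14 other purinergic genes named by the fixed rule; circles are 12-month and triangles 3-month rats, dark symbols day 14 and light symbols day 3, filled where limma called them. Il1b, Gna13 and Nt5e are filled above 0 and Adora1 and Slc29a1 filled below 0 in all 4 comparisons, and the day 3 symbols of Enpp3 stand far above those of day 14.

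Markers of some other cells moved with the injured side, mainly on day 3. For the counts below, the shares of all genes tested called higher were 10.9% and 18.7% at 12 months on days 14 and 3. At 3 months they were 13.2% and 11.5% on days 14 and 3. Shares called lower were 5.96%, 10%, 7.1% and 8.96% in the same order. Of 15 tested monocyte and macrophage markers, 12 were called higher and 0 lower in ipsilateral than contralateral microglia on day 3 at 12 months, and 14 higher and 0 lower on day 3 at 3 months. On day 14, 5 were called higher and 2 lower at 12 months, and 5 higher and 1 lower at 3 months. The mean signal of this list on day 3 was 7.00 to 7.32 over the ipsilateral arrays, against 5.78 to 5.93 over the contralateral arrays at 12 months, and 6.52 to 7.89, against 5.69 to 5.83, at 3 months. On day 14 it was 5.89 to 6.29 over the ipsilateral arrays, against 5.79 to 5.92 over the contralateral arrays at 12 months, and 6.03 to 6.20, against 5.71 to 5.78, at 3 months. Sham arrays had 5.65 to 5.74 at 12 months and 5.76 to 5.81 at 3 months. Of the border macrophage markers, 7 of 7 were called higher on day 3 at 12 months and 6 of 7 at 3 months, and 2 higher and 1 lower of 7 on day 14 at each age. Their mean on day 3 was 6.86 to 7.46 over the ipsilateral arrays, against 5.75 to 6.09 over the contralateral arrays at 12 months, and 7.33 to 7.70, against 5.99 to 6.56, at 3 months. F13a1, which both lists hold, lay at or below the 30th percentile on all 3 ipsilateral arrays of day 14 at each age. Resident microglia markers fell on the injured side as well: 6 of 10 were called lower on day 14 and 7 of 10 on day 3 at 12 months, and 5 and 6 of 10 at 3 months, Tmem119, Sall1, Slc2a5, Cx3cr1 and Csf1r each time, while Itgam was called higher in all but the 12-month day 3 comparison. Neutrophil markers were called higher for 4 of 12 genes on day 3 at 3 months and 1 of 12 on day 3 at 12 months, and on day 14 for 1 gene at 3 months, with 1 lower at 12 months and 3 lower at 3 months. The counts of 1 gene called higher did not exceed the shares of all genes tested. Of the remaining lists, 5 platelet, 6 endothelial, 8 T and NK, 6 oligodendrocyte, 6 astrocyte and 7 neuron markers were tested. Each list had at most 3 markers called in a single direction in any comparison of hemispheres. With so few genes, 3 calls exceed the shares of all genes tested. Some array means of these lists did not overlap between hemispheres, and others did. The T and NK mean on day 14 was 5.35 to 5.43 over the ipsilateral arrays, against 5.21 to 5.26, at 12 months. At 3 months it was 5.34 to 5.43, against 5.14 to 5.21. The oligodendrocyte mean on day 3 at 12 months was lower, at 5.40 to 5.44, against 5.62 to 5.72. The part of these cell markers in the differences of the 8 genes was not tested.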

How the data were processed

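Log2 expression values of 29214 probe sets on 30 Affymetrix arrays were deposited by the authors, who used RMA in Affymetrix Expression Console (no versions stated), per the submitters' processing notes. They were used without further scaling. Probe sets were named through the platform annotation, with symbols checked against RefSeq genes of GRCr8: 15316 had 1 symbol, 317 several and 13581 none, and the last 2 kinds were left out. The Adora3 probe set is listed under 2 gene IDs of that symbol. Probe sets above the 30th percentile of their array on at least 3 arrays were kept, with the highest mean taken per gene (14511 genes named, 11679 tested).

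Differences came from 1 limma fit (limma 3.58.1, R 4.3.3) of 10 group means over all 30 arrays with eBayes, in 21 comparisons, each adjusted over all genes tested, without a term for the animal. The codes in the sample titles tie ipsilateral and contralateral samples of the same replicate number to 1 animal; the deviations of these pairs from their group means correlated at -0.0791 to 0.211. Alternatives were the animal as a random or fixed block, the compared arrays alone, no filter or a stricter one, quantile normalization, a trended robust prior, another probe set rule and each array left out. The script was tested on simulated data.

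Named genes are the 8 members; other purinergic genes called in the same direction in at least 3 of the 4 comparisons of hemispheres, or among the 3 called with the largest rise or fall in any; and the 3 genes with the most similar group means. The members and lists were chosen with earlier results of these data known.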

Additional observations from a re-analysis of the deposited data

Results flagged for a closer look

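For the 8 members and the other genes named by the rule, 9 results differed between days or ages in the hemisphere difference (ipsilateral minus contralateral) by limma's interaction test. Genes outside the rule are not among the 9. Of the 46 other purinergic genes tested, the day interaction at 12 months was called higher for 2 (Enpp1 and Prkcd). It was called lower for 4, with Enpp3, P2ry14 and Adk the largest, and 5.33% of all genes tested were called in either direction. Among the 8 genes, on day 14 minus day 3, these were P2ry6 at 12 months (-0.62, adjusted p = 0.0123) and, at 3 months, P2rx7 (0.68, adjusted p = 0.00337) and P2rx4 (0.60, adjusted p = 0.0262). Of the other named purinergic genes, Enpp3 differed on day 14 minus day 3 at 12 months (-1.52, adjusted p = 1.39e-06) and at 3 months (-0.80, adjusted p = 0.00938), and on day 3 between 12 and 3 months (0.86, adjusted p = 0.00977). On day 3, 2 of 3 contralateral arrays of Enpp3 at each age lay at or below the 30th percentile, so the sizes of these Enpp3 differences are set against signals near background. P2ry14 differed on day 14 minus day 3 at 12 months (-0.92, limma adjusted p = 0.00511) and at 3 months (-0.74, adjusted p = 0.0361). Gna13 differed on day 14 minus day 3 at 3 months (0.51, limma adjusted p = 0.0422). The 3-month calls of P2ry14 and Gna13 ended without any 1 of 8 and of 7 of the 12 arrays (limma adjusted p = 0.0554 to 0.0985 and 0.082 to 0.143), and that of Gna13 also with the animal as a fixed block (0.0539). With the compared arrays alone, the 3-month calls of P2rx7, P2rx4, Enpp3, P2ry14 and Gna13 ended (adjusted p = 0.0597, 0.185, 0.0553, 0.0947 and 0.239), as did that of Enpp3 between ages (0.0714), and after quantile normalization the Enpp3 difference between ages had 0.0579.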

How the results depend on the processing

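No difference of the 8 genes changed sign under any alternative where it was called. Between hemispheres the calls of the 8 genes were the same in 255 of 256 values under other settings, the exception being P2ry6 on day 3 at 12 months, and in 192 of 192 with 1 array left out. Each of the 8 genes has 1 named probe set, so the other probe set rule could not change its signal. The filter settings also kept these differences and could change only the estimate of spread and the adjustment. The other counts of called members moved as follows. With the animal as a replicate block, the change of the hemisphere difference between days was called for 2 members in place of 1 at 12 months (random block) and for 1 in place of 2 at 3 months (fixed block); the blocks changed no other count of members beyond 1.5 times. With the compared arrays alone these counts were 2 at 12 months and 0 at 3 months. After quantile normalization the contralateral minus sham counts were 1 on day 14 and 3 on day 3 at 3 months, in place of 4 and 5, and the sham age count was 2 in place of 1. Leaving out 1 array gave 8 to 8, 7 to 7, 8 to 8 and 8 to 8 called members between hemispheres (12 months day 14, 12 months day 3, 3 months day 14, 3 months day 3), and in the same order 8 to 8, 7 to 8, 8 to 8 and 8 to 8 for ipsilateral against sham and 0 to 0, 0 to 0, 3 to 4 and 3 to 6 for contralateral against sham. For day 14 against day 3 it gave 3 to 6 at 12 months and 2 to 3 at 3 months in ipsilateral microglia, and 0 to 0 at both ages in contralateral ones. For the change of the hemisphere difference it gave 0 to 2 and 1 to 2 between days at 12 and 3 months and 0 to 0 between ages on both days, and for sham age 0 to 1. The cause was not tested. With the compared arrays alone the spread is estimated from those arrays only, and the SE of the day interaction moved either way. For Adora3 at 12 months it was 0.18 in place of 0.26. At 3 months it was 0.17 in place of 0.14 for P2rx7 and 0.20 in place of 0.16 for P2rx4. Each group holds 3 arrays, which limits the precision.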

Other observations

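A second probe set, listed under both Tmigd3 and Adora3 and therefore not named for either gene, was lower in ipsilateral than contralateral microglia in each comparison of hemispheres. It averaged 6.09 ± 0.08 in ipsilateral microglia on day 14 at 12 months, against 6.66 ± 0.07 in contralateral ones (SD, n = 3 each). At 3 months on day 14 it averaged 6.08 ± 0.16 in ipsilateral microglia, against 6.67 ± 0.04 in contralateral ones. On day 3 it averaged 5.99 ± 0.13 in ipsilateral microglia, against 6.62 ± 0.10 in contralateral ones at 12 months, and 5.96 ± 0.14, against 6.43 ± 0.04, at 3 months. Sham samples had 6.88 ± 0.20 at 12 months and 7.04 ± 0.09 at 3 months. The ipsilateral and contralateral arrays of this probe set did not overlap at either age or day. Its differences between hemispheres were smaller than those of the named Adora3 probe set at each age and day. In 12-month ipsilateral microglia its mean was not lower on day 14 than on day 3, unlike that of the named probe set.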
